A study of Mus musculus with 38 samples.

Results

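Cells detect foreign or misplaced nucleic acid in the cytosol through a small set of sensor proteins, and 10 mouse genes of this system were followed here by name through the 3 count tables: Ddx58, Ifih1, Dhx58, Mavs, Tmem173, Mb21d1, Zbp1, Aim2, Trex1 and Adar. All 10 were found by Ensembl identifier among the 55487 genes counted, and 9 of them had reads. Ddx58, Tmem173 and Mb21d1 are the older names of Rigi, Sting1 and Cgas. The libraries came from BV2, an immortalised mouse microglial line, from GL261, a mouse glioma line stably carrying pEGFP-N1, and from primary wild-type bone marrow-derived macrophages (BMDM). In the first experiment each cell type was grown alone or in direct co-culture (1 BV2 per 2 GL261 cells, or 1 BMDM per 1 GL261 cell) in normoxia (21% O2) or under hypoxia (below 0.1% O2) for 16 h. In the second, BV2 or BMDM alone received DMSO in normoxia, DMSO in hypoxia, or 10 nM panobinostat, a histone deacetylase inhibitor, in hypoxia. Groups had 2 libraries, except the 2 BMDM co-culture groups with 3, giving 38 libraries in 18 groups. The labels call the replicates biological for BV2 and GL261 of the first experiment only. For the others, p-values measure the spread between libraries, which may be technical.

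RIG-I (Ddx58) and MDA5 (Ifih1) are helicases that bind viral-type double-stranded RNA, and both signal through the mitochondrial adaptor MAVS towards interferon and NF-kappaB. LGP2 (Dhx58) is a related helicase that regulates them. cGAS (Mb21d1) binds DNA and makes the cyclic dinucleotide that activates STING (Tmem173), while AIM2 binds DNA and assembles an inflammasome. ZBP1 recognises Z-form nucleic acid and can trigger necroptosis, the editing enzyme ADAR and the exonuclease TREX1 remove or disguise self RNA and DNA, and several of these genes are themselves induced by interferon.

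The 150 bases before the annotated start are shown for 5 genes that the comparisons below turn on, from the RefSeq promoters of GRCm38.p6, 5′ to 3′ on the strand of the gene. Capitals mark GAAAC, or GTTTC on the other strand, the half-site of the interferon-stimulated response element. This half-site was chosen after the sequences had been seen, and 39.7% of 32851 mouse promoters hold it within 250 bases upstream.
Ddx58 (chr4:40239826-40239975, minus strand): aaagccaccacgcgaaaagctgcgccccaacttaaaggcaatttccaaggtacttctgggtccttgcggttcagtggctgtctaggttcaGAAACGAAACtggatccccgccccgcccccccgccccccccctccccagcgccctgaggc
Ifih1 (chr2:62646256-62646405, minus strand): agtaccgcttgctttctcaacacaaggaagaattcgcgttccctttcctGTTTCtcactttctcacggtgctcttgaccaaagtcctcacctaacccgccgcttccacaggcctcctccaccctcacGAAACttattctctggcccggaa
Mb21d1 (chr9:78443238-78443387, minus strand): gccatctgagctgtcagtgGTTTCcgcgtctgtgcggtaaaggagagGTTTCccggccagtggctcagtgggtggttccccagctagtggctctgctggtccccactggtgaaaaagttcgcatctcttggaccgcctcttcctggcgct
Aim2 (chr1:173420454-173420603, plus strand): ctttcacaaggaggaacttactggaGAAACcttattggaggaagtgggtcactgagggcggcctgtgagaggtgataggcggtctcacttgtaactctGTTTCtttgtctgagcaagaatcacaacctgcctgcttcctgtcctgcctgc
Mavs (chr2:131233913-131234062, plus strand): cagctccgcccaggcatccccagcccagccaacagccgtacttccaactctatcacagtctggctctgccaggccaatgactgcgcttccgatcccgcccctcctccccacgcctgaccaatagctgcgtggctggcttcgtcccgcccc
Ddx58 holds 2 half-sites in tandem, beginning at -60 and -55 from its start. The pair contains GAAANGAAA, a pattern also chosen after the sequences had been seen, which occurs on either strand in 2.68% of promoters. The other half-sites shown stand singly, at -101 and -23 in Ifih1, -131 and -103 in Mb21d1, and -125 and -52 in Aim2, and the Mavs stretch has none. No match to the core of the complete element (GAAA, any 2 bases, GAAA, in 2.98% of promoters), a kappa-B site (GGGAA, any 2 bases, TCC, 1.09%) or the core of a hypoxia-response element (ACGTG, 16.6%) lay within 250 bases upstream of these 5 starts on either strand. The same 3 searches found nothing in the 2 Trex1 and 3 Adar promoters listed. Dhx58, Tmem173 and Zbp1 had no entry among these promoters and were not searched.

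Total counts per library ran from 9634700 to 27238933, so that 3 counts corresponded to 0.11 to 0.311 CPM, a gene's count relative to the total of its library. The myeloid marker set (10 genes, among them Csf1r and Tyrobp) summed to 3400 to 4620 CPM in BV2 and 6050 to 10600 CPM in BMDM of the first experiment, against at most 35.3 CPM in GL261. BMDM of the second experiment differed in their marker levels. Their 4 stromal markers (Col1a1, Col1a2, Dcn, Pdgfrb) summed to 19400 to 19700 CPM in normoxia with DMSO, 2580 to 13300 CPM in hypoxia with DMSO and 8590 to 14100 CPM with panobinostat, compared with 60.6 to 546 CPM in the first experiment. Their myeloid sums were 6850 to 9140, 2950 to 4750 and 800 to 2190 CPM in the same order. In such bulk libraries, fewer cells of a type and less RNA per cell cannot be told apart. Transcripts of the partner cell made up 0.568% to 6.38% of co-cultured BV2 and BMDM libraries and 0.207% to 0.915% of co-cultured GL261 libraries, judged from 116 to 218 partner-specific genes. In monocultures the value was at most 0.0563%. It is low there by construction, since the genes were picked as at least 100-fold lower in those monocultures, and so does not check the co-culture values. How the cell types were separated is not given in the sources used here.

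Trex1 was counted 0 times in all 38 libraries, and this does not show that it was silent. All of its 1147 exonic bases (GRCm38 chromosome 9, 109057933 to 109059734, minus strand) lie within exons of Atrip on the same strand. Of the protein-coding genes placed wholly inside another gene's exons in this way, 140 of 140 had no count in any library, while 15.5% of the 20139 coding genes without same-strand overlap had none. No Trex1 level is therefore given. The remaining 9 genes share no exonic base with a gene on their own strand. On the opposite strand, Adar overlaps Chrnb2 over 16.8% of its exonic bases, Mb21d1 overlaps Gm8093 over 4.87% and Dhx58 overlaps Dhx58os over 4.31%, and whether counting used the strand is not given in the sources used here.

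**Figure D1:**
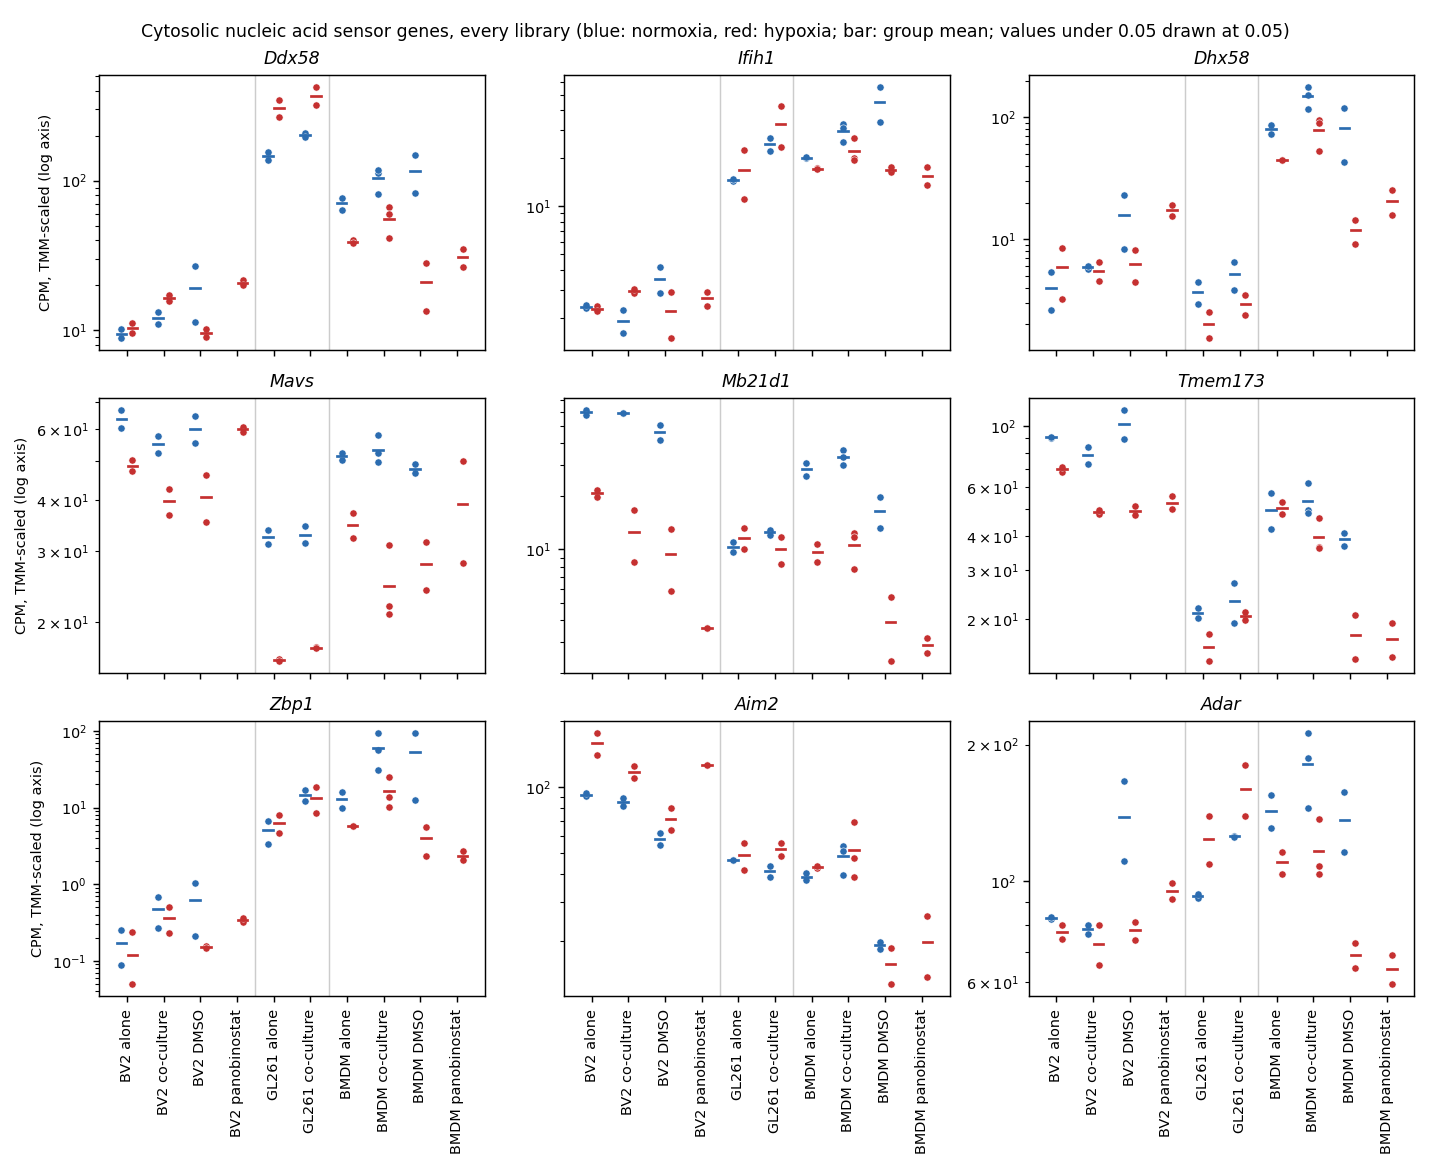
Level of 9 sensor genes in every library, in CPM scaled by trimmed mean of M-values (TMM) within each cell type and experiment, on a log axis that differs between panels. Blue points are normoxic and red points hypoxic libraries, and bars are group means. Ddx58 means are highest in hypoxic GL261, and the highest Dhx58 mean is that of normoxic BMDM co-cultures. Mb21d1 is lower in hypoxia than in normoxia in BV2 and BMDM.

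The order of the sensor genes by level differed between the cell types. In TMM-scaled CPM per kilobase of exon, which allows levels to be set between genes, normoxic BV2 monocultures had most Tmem173 (33.2 ± 0.206, SD, n = 2), then Aim2 (26.3 ± 0.545), Mavs (19.0 ± 1.4), Mb21d1 (14.4 ± 0.634) and Adar (10.2 ± 0.0871), and no neighbours in that order overlapped in their SD ranges. Ddx58 (1.34 ± 0.124) and Dhx58 (1.22 ± 0.588) overlapped, Ifih1 stood at 0.287 ± 0.00953, and Zbp1, at 0.0488 ± 0.0332, was near the counting floor. GL261 monocultures were led by Ddx58 (20.8 ± 1.71, n = 2), followed by Aim2 (13.3 ± 0.0202), Adar (11.4 ± 0.157), Mavs (9.72 ± 0.55) and Tmem173 (7.66 ± 0.464). Mb21d1 (2.5 ± 0.231) followed, and Zbp1 (1.42 ± 0.667) overlapped in its range with both Ifih1 (1.78 ± 0.0433) and Dhx58 (1.13 ± 0.326). Normoxic BMDM monocultures had most Dhx58 (24.4 ± 3.07, n = 2), whose range overlapped that of Tmem173 (18.1 ± 3.79). Adar (17.6 ± 2.09) and Mavs (15.4 ± 0.444) overlapped Tmem173 and each other. Aim2 (11.2 ± 0.586) and Ddx58 (9.98 ± 1.25) overlapped, Mb21d1 stood apart at 6.88 ± 0.823, and Zbp1 (3.67 ± 1.18) overlapped Ifih1 (2.47 ± 0.0346).

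Between BV2 and GL261, which share a count table, Ddx58 and Ifih1 were lower in BV2 while Mb21d1 and Tmem173 were higher. Ddx58 was 14.3-fold lower in normoxic BV2 than in GL261 monocultures (log2 difference -3.83, SE 0.18, edgeR adjusted p = 5.09e-13), Ifih1 was 5.68-fold lower (-2.51, SE 0.32) and Zbp1 25.8-fold lower by the fit (-4.69, SE 0.66), with 1 BV2 library under its floor. Tmem173 was 4.69-fold higher in BV2 (2.23, SE 0.15), Mb21d1 6.23-fold higher (2.64, SE 0.23), Aim2 2.15-fold higher (1.1, SE 0.15) and Mavs 2.12-fold higher (1.09, SE 0.12). These 7 of 9 tested genes were called at an edgeR adjusted p under 0.05 (4 higher, 3 lower), where 73.2% of all 16882 genes tested were called (33.8% higher, 39.4% lower). Dhx58 (0.23, SE 0.42) and Adar (-0.04, SE 0.14) were not. Every one of the 7 calls held when any 1 library was left out.

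Between BV2 and BMDM with DMSO in normoxia, 7 of 9 genes were called (3 higher, 4 lower in BV2), against 44.2% of 15955 genes (17.1% higher, 27.1% lower). Ifih1 was 14.4-fold lower in BV2 (log2 difference -3.85, SE 0.4, edgeR adjusted p = 6.33e-05), Ddx58 6.81-fold lower (-2.77, SE 0.48), Dhx58 5.8-fold lower (-2.54, SE 0.59) and Zbp1 lower by -6.57 (SE 1.04) on the log2 scale. Tmem173 (1.21, SE 0.24), Mb21d1 (1.29, SE 0.44) and Aim2 (1.42, SE 0.3) were higher in BV2. The Dhx58 call was lost without BMDM replicate 1 (-1.66, adjusted p = 0.0564) or BV2 replicate 2 (-1.95, adjusted p = 0.0544), and the Mb21d1 call without BMDM replicate 1 (1.01, adjusted p = 0.194), BV2 replicate 1 (1.45, adjusted p = 0.07) or BV2 replicate 2 (1.18, adjusted p = 0.137), all by edgeR. These BMDM held the stromal marker levels given above, and the part of cell makeup in the differences was not tested.

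Under hypoxia, Mb21d1, the gene of cGAS, fell by more than any other sensor gene in both BV2 comparisons of the first experiment and in BMDM monocultures. Its TMM-scaled level in BV2 monocultures was 61.2 and 57.5 CPM in normoxia and 21.8 and 19.9 CPM in hypoxia. In BV2 co-cultures it was 58.8 and 58.7 CPM against 16.7 and 8.51 CPM, and with DMSO 41.3 and 50.4 CPM against 5.81 and 13 CPM. The hypoxic libraries lay below the normoxic ones in all 3 BV2 settings with no overlap. The falls were 2.85-fold (log2 change -1.51, SE 0.19, edgeR adjusted p = 4.12e-06), 4.64-fold (-2.21, SE 0.2, adjusted p = 9.31e-08) and 4.87-fold (-2.28, SE 0.35, adjusted p = 0.00108). In BMDM monocultures Mb21d1 was at 26 and 30.8 CPM in normoxia and 8.5 and 10.8 CPM in hypoxia, a 2.94-fold fall (-1.56, SE 0.24, adjusted p = 0.00139). In BMDM co-cultures it was at 36.2, 29.8 and 33.4 CPM against 12.4, 7.81 and 11.8 CPM, a 3.11-fold fall (-1.64, SE 0.2, adjusted p = 0.000158). These 5 calls held under each alternative run, leaving out any library included. GL261 Mb21d1 overlapped between the oxygen levels in monoculture, at 11 and 9.65 CPM against 13.2 and 10 CPM (0.17, SE 0.21, adjusted p = 0.545), and was not called in co-culture (-0.32, SE 0.22, adjusted p = 0.244).

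Tmem173, the gene of STING, fell in BV2 in each setting. It was at 90.6 and 91.4 CPM in normoxic and 68 and 71 CPM in hypoxic monocultures (log2 change -0.39, SE 0.11, edgeR adjusted p = 0.0058). In co-culture it was at 83.5 and 72.9 CPM against 47.9 and 49.6 CPM (-0.68, SE 0.11, adjusted p = 5.95e-05). With DMSO it was at 114 and 89.6 CPM against 47.5 and 51.1 CPM (-1.04, SE 0.2, adjusted p = 0.00365). None of these groups overlapped, although the monoculture call was lost without hypoxic replicate 1 (-0.33, adjusted p = 0.061). In GL261 the change was -0.4 (SE 0.19, adjusted p = 0.102) in monoculture and -0.17 (SE 0.19, adjusted p = 0.454) in co-culture. BMDM monocultures overlapped, at 56.9 and 42.2 CPM against 47.9 and 52.8 CPM. BMDM co-cultures did not overlap, at 62.3, 49.4 and 48.5 CPM against 46.4, 36.4 and 36 CPM (-0.43, SE 0.16, edgeR adjusted p = 0.0603, and adjusted p = 0.0296 with the replicate number as a block).

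**Figure D2:**
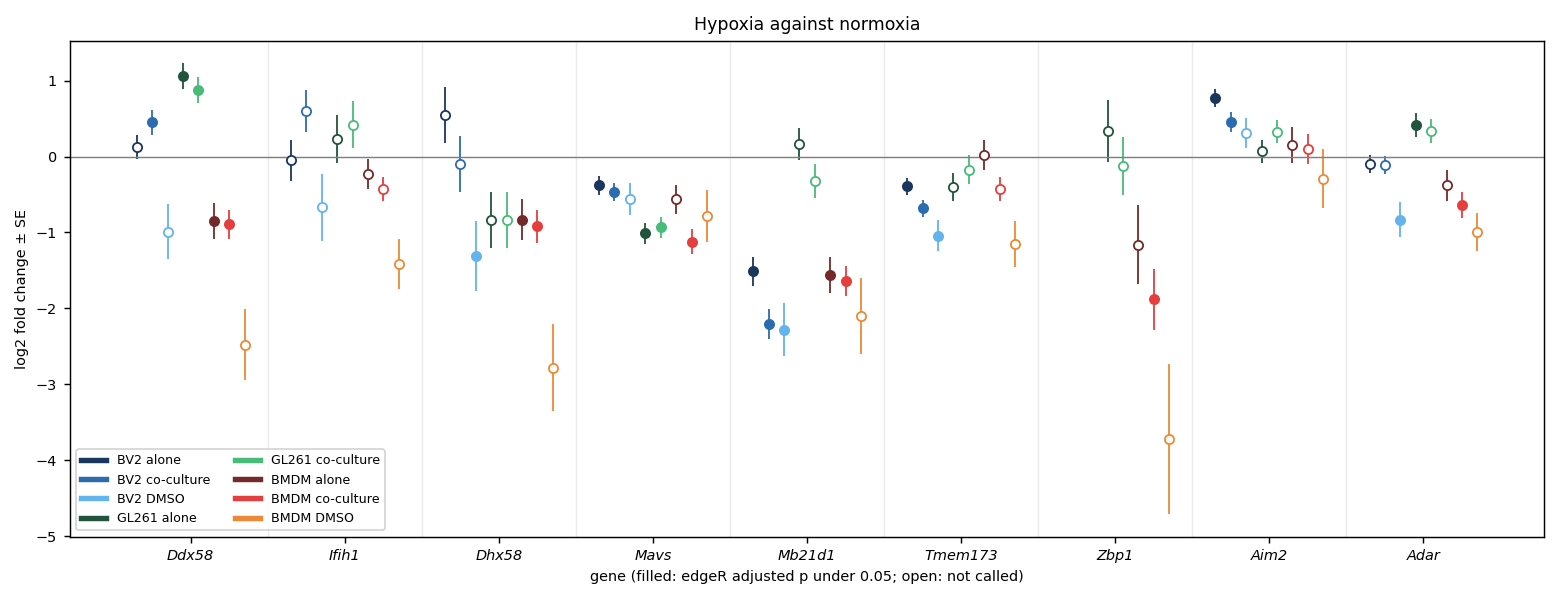
Log2 change in hypoxia against normoxia for each sensor gene (x axis) in 8 comparisons (colours), with bars of 1 SE; filled points have an edgeR adjusted p under 0.05. Mavs is below 0 in all 8 comparisons, Mb21d1 is below -1.5 in every BV2 and BMDM comparison, and Ddx58 is above 0 in GL261 and below 0 in BMDM.

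Mavs, the adaptor that the RNA helicases share, was lower in hypoxia in all 3 cell types. GL261 monocultures went from 33.8 and 31.2 CPM to 16.2 and 16 CPM (log2 change -1.01, SE 0.14, edgeR adjusted p = 0.000181), and GL261 co-cultures from 34.5 and 31.3 to 17.3 and 17.2 CPM (-0.93, SE 0.14, adjusted p = 0.000211). BMDM co-cultures went from 57.9, 49.8 and 52.5 CPM to 31, 21.9 and 20.9 CPM (-1.12, SE 0.16, adjusted p = 0.000421). BMDM monocultures, at 50.4 and 52.5 CPM against 32.3 and 37.3 CPM, did not overlap but missed the threshold (-0.56, SE 0.19, adjusted p = 0.0527). In BV2 the falls were smaller, from 66.9 and 60.3 to 47.2 and 50.3 CPM in monoculture (-0.38, SE 0.12, adjusted p = 0.0108) and from 52.3 and 57.7 to 36.8 and 42.7 CPM in co-culture (-0.47, SE 0.12, adjusted p = 0.00289). The BV2 monoculture call was lost without normoxic replicate 1 (-0.31, adjusted p = 0.0988) or hypoxic replicate 1 (-0.31, adjusted p = 0.0902). With DMSO the Mavs change was -0.56 (SE 0.21, adjusted p = 0.0604) in BV2 and -0.78 (SE 0.34, adjusted p = 0.21) in BMDM.

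Ddx58, the gene of RIG-I, went opposite ways in glioma cells and macrophages. GL261 monocultures held 155 and 138 CPM in normoxia and 345 and 267 CPM in hypoxia, a 2.08-fold rise (log2 change 1.06, SE 0.17, edgeR adjusted p = 0.000532). GL261 co-cultures held 207 and 196 CPM against 423 and 320 CPM, a 1.84-fold rise (0.88, SE 0.17, adjusted p = 0.00114). BMDM fell from 64.1 and 76.6 to 40 and 38.3 CPM alone (-0.85, SE 0.24, adjusted p = 0.025) and from 112, 117 and 81.8 to 66.7, 41.1 and 59.5 CPM in co-culture (-0.89, SE 0.19, adjusted p = 0.00444). The groups did not overlap in any of these 4 comparisons. The call in BMDM monoculture was lost without normoxic replicate 2 (-0.79, adjusted p = 0.103), hypoxic replicate 1 (-0.9, adjusted p = 0.0971) or hypoxic replicate 2 (-0.83, adjusted p = 0.129). In hypoxic BMDM co-cultures, GL261 RNA alone would give 5.17, 9.82 and 19.5 CPM of Ddx58 out of 64.8, 37.8 and 60.6 plain CPM measured. The difference between GL261 and BMDM was not tested, since their counts come from separate tables. BV2 monocultures overlapped, at 10.1 and 8.86 CPM against 11.2 and 9.6 CPM (0.13, SE 0.16, adjusted p = 0.514).

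In BV2 co-cultures Ddx58 read 13.3 and 10.9 CPM in normoxia and 17.2 and 15.6 CPM in hypoxia, and was called higher (log2 change 0.45, SE 0.16, edgeR adjusted p = 0.0216). At the partner share of each library, glioma RNA alone would give 6.27 and 7.19 CPM of Ddx58 in the hypoxic BV2 co-cultures, which is 37.6% and 47.6% of the plain CPM measured, and 1.45 and 0.864 CPM in the normoxic ones. Less that amount, 10.4 and 7.92 plain CPM remained in hypoxia against 12.7 and 10.3 plain CPM in normoxia, which overlapped. The mean of hypoxic BV2 monocultures was 10.1 plain CPM. The GL261 level used here was that of its monocultures. The Ddx58 call was lost with DESeq2 (0.46, adjusted p = 0.0605), without normoxic replicate 2 (0.31, adjusted p = 0.199) and without hypoxic replicate 1 (0.3, adjusted p = 0.185).

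Of the other 2 helicases, Ifih1 was called in none of the 8 hypoxia comparisons by the main edgeR test and Dhx58 was called in BV2 with DMSO and in BMDM alone and in co-culture. Dhx58 in BMDM was at 72.6 and 86.8 CPM in normoxic and 44.6 and 44.7 CPM in hypoxic monocultures (log2 change -0.83, SE 0.27, edgeR adjusted p = 0.0452). In BMDM co-cultures it was at 152, 177 and 118 CPM against 95.2, 52.5 and 89 CPM (-0.92, SE 0.22, adjusted p = 0.00795). The monoculture call was lost without any 1 of the 4 libraries, with values from -1.02 without normoxic replicate 1 (adjusted p = 0.0788) and -0.78 without normoxic replicate 2 (adjusted p = 0.155) to -0.86 without hypoxic replicate 1 (adjusted p = 0.157) or 2 (adjusted p = 0.167). Ifih1 in BMDM co-cultures was at 32.9, 31 and 25.2 CPM against 26.7, 20.2 and 19.5 CPM, which overlapped (-0.43, SE 0.16, adjusted p = 0.0575, and adjusted p = 0.0302 with the replicate number as a block). In GL261, Dhx58 was 4.44 and 2.93 CPM against 2.52 and 1.55 CPM in monoculture (-0.84, SE 0.37, adjusted p = 0.0858) and -0.83 (SE 0.37, adjusted p = 0.0773) in co-culture. Neither gene was called in BV2 of the first experiment, where Ifih1 stayed between 1.59 and 3.03 CPM and Dhx58 between 2.63 and 8.55 CPM.

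Zbp1 fell in hypoxic BMDM co-cultures, from 55.6, 93.3 and 30.6 CPM to 25.3, 10.2 and 13.9 CPM, a 3.67-fold change (log2 change -1.88, SE 0.4, edgeR adjusted p = 0.00444). The lowest normoxic library lay above the highest hypoxic one, and the call held without any 1 library. In BMDM monocultures Zbp1 was at 10 and 15.9 CPM against 5.74 and 5.8 CPM (-1.16, SE 0.52, adjusted p = 0.128). GL261 libraries overlapped, at 6.69 and 3.36 CPM against 7.97 and 4.71 CPM in monoculture. In BV2 its counts were too low for the fit, and it reached at most 0.691 CPM in the first experiment.

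Aim2 rose in hypoxic BV2 of the first experiment. Monocultures went from 90.9 and 93.6 to 140 and 176 CPM, a 1.71-fold rise (log2 change 0.77, SE 0.12, edgeR adjusted p = 4.79e-05), and co-cultures from 88.9 and 82 to 110 and 125 CPM (0.46, SE 0.13, adjusted p = 0.00394). The co-culture call was lost without hypoxic replicate 2 (0.31, adjusted p = 0.0845). With DMSO Aim2 was at 61.7 and 54.2 CPM against 80 and 63.6 CPM (0.31, SE 0.2, adjusted p = 0.25). It was not called in GL261 (0.07 and 0.33) or in BMDM of the first experiment (0.15 and 0.1).

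Adar, the RNA editing enzyme, drew the most counts of the 9 genes over all libraries. It was called higher in hypoxic GL261 monocultures, at 91.9 and 93.7 CPM against 139 and 109 CPM (log2 change 0.42, SE 0.16, edgeR adjusted p = 0.0479). That call was lost without normoxic replicate 1 (0.41, adjusted p = 0.156), normoxic replicate 2 (0.47, adjusted p = 0.0912) or hypoxic replicate 1 (0.26, adjusted p = 0.248). It was called lower in hypoxic BMDM co-cultures, at 187, 212 and 145 CPM against 137, 104 and 108 CPM (-0.64, SE 0.17, adjusted p = 0.0127). In BV2 of the first experiment its changes were -0.1 and -0.11 (SE 0.12 in each) and not called.

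Counted together, 4 of 8 tested sensor genes were called in hypoxic BV2 monocultures (1 higher, 3 lower) beside 61.9% of all genes tested (30.9% higher, 31% lower), and 5 of 8 in BV2 co-cultures (2 higher, 3 lower) beside 67.3% (35.2% and 32.1%). In GL261, 3 of 9 were called in monoculture (2 higher, 1 lower) beside 44.6% (23.2% and 21.4%) and 2 of 9 in co-culture (1 higher, 1 lower) beside 52.4% (26.8% and 25.6%). In BMDM, 3 of 9 were called in monoculture, all lower, beside 23.9% of all genes in either direction and 10.6% called lower. In BMDM co-cultures 6 of 9 were called, all lower, beside 34.8% in either direction and 17.3% lower. The BV2 and GL261 shares lay near or below those of all genes. The median change of the tested members was -0.56 and -0.89 in the 2 BMDM comparisons, where that of all genes was 0.03 in each.

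The hypoxia effect differed between BV2 and GL261 monocultures for 4 of 9 genes (2 each way), beside 37.4% of all genes (18.7% each way), in a direct test of the interaction in 1 fit of 16 libraries. The effect in BV2 was below that in GL261 for Mb21d1 (log2 difference of effects -1.58, SE 0.31, edgeR adjusted p = 0.000581) and Ddx58 (-0.83, SE 0.23, adjusted p = 0.00908). It was above that in GL261 for Aim2 (0.8, SE 0.21, adjusted p = 0.00465) and Mavs (0.73, SE 0.17, adjusted p = 0.00245). The median over all genes was 0.15. The Ddx58 call was lost without BV2 normoxic replicate 1 (-0.73, adjusted p = 0.0514) or hypoxic replicate 2 (-0.72, adjusted p = 0.0531), and the Aim2 call without GL261 hypoxic replicate 2 (0.51, adjusted p = 0.0559).

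In the second experiment, hypoxia with DMSO lowered 4 of 8 tested genes in BV2, beside 37.5% of all genes called and 20.2% called lower. Besides Mb21d1 and Tmem173 these were Dhx58, at 23.1 and 8.28 CPM against 4.48 and 8.14 CPM (log2 change -1.31, SE 0.46, edgeR adjusted p = 0.0479), and Adar, at 166 and 111 CPM against 81.4 and 74.4 CPM (-0.83, SE 0.23, adjusted p = 0.0176). Normoxic replicate 1 was the high library for both. Without it the Dhx58 change was -0.36 (adjusted p = 0.509) and the Adar change -0.48 (adjusted p = 0.0843). The Dhx58 call was lost too without hypoxic replicate 1 (-0.94, adjusted p = 0.176), and the Adar call without hypoxic replicate 1 (-0.9, adjusted p = 0.0555) or 2 (-0.77, adjusted p = 0.071). Ddx58 showed the same high library, at 26.9 and 11.3 CPM against 9.03 and 10.2 CPM (-0.99, SE 0.36, adjusted p = 0.0568).

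In BMDM with DMSO, hypoxic libraries were lower by up to -3.72 on the log2 scale, and edgeR called 0 of 9 members. Zbp1 was at 93.7 and 12.7 CPM in normoxia and 5.63 and 2.32 CPM in hypoxia (log2 change -3.72, SE 0.99, adjusted p = 0.106). Dhx58 was at 119 and 43.3 CPM against 9.2 and 14.5 CPM (-2.78, SE 0.57, adjusted p = 0.0783). Ddx58 was at 148 and 82.9 CPM against 13.5 and 28.2 CPM (-2.48, SE 0.47, adjusted p = 0.0729), and Ifih1 at 55.9 and 33.9 CPM against 16.3 and 17.6 CPM (-1.41, SE 0.33, adjusted p = 0.0885). Normoxic replicate 1 was again the higher one for these 4 genes, and yet both normoxic libraries lay above both hypoxic ones. Mb21d1 changed by -2.1 (SE 0.5, adjusted p = 0.0925), Tmem173 by -1.15 (SE 0.3, adjusted p = 0.102) and Adar by -0.99 (SE 0.25, adjusted p = 0.0959). These 7 genes had an unadjusted p under 0.05, and all 7 were called with DESeq2, where the adjusted p ran from 5.58e-05 for Ddx58 to 0.0194 for Tmem173. edgeR called 0.483% of 14914 genes in this comparison, while 3786 genes had an unadjusted p under 0.05 and DESeq2 called 2078. Without normoxic replicate 1 the Zbp1 change was -1.71 (adjusted p = 0.298), and without hypoxic replicate 2 Ddx58 was called (-3.1, adjusted p = 0.0458). The myeloid and stromal sums of these libraries moved with the sensor genes, as given above. The 4 granulocyte markers (Ly6g, Elane, Mpo, S100a8) summed to 10.6 CPM in normoxic replicate 1, 1.2 CPM in normoxic replicate 2 and 0.83 to 1.14 CPM in hypoxia, with Ly6g and Mpo at 0 in normoxia. The part of cell makeup in the result was not tested.

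**Figure D3:**
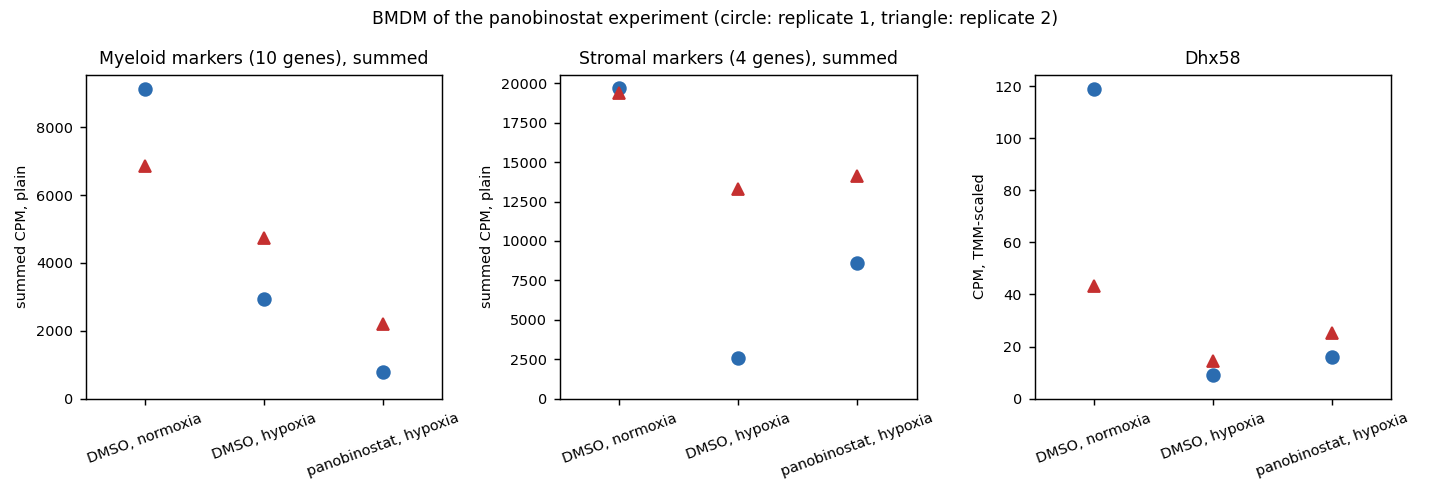
Summed CPM of 10 myeloid and 4 stromal marker genes, and TMM-scaled CPM of Dhx58, in the 6 BMDM libraries of the panobinostat experiment (circles are replicate 1, triangles replicate 2). Myeloid sums go from 6850 and 9140 in normoxia to 800 and 2190 with panobinostat, and Dhx58 is highest, at 119 CPM, in normoxic replicate 1.

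The BV2 and BMDM hypoxia effects with DMSO were not told apart for any member by edgeR in 1 fit of both cell types, beside 0.664% of all genes called. Ddx58 alone had an unadjusted p under 0.05 there (log2 difference of effects 1.55, SE 0.65, adjusted p = 0.232), and DESeq2 called 0 members.

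Co-culture with glioma cells moved Zbp1 most in BMDM. In normoxia Zbp1 was at 10 and 15.9 CPM in BMDM alone and at 55.6, 93.3 and 30.6 CPM in co-culture, a 4.65-fold rise with no overlap (log2 change 2.22, SE 0.47, edgeR adjusted p = 0.0448). It was the 1 member of 9 called, beside 1.64% of all 14806 genes in either direction and 1.57% called higher. GL261 RNA alone would give 0.0658 to 0.191 CPM of Zbp1 in these libraries, at most 0.594% of what was measured, with the GL261 level taken from the other count table. The 4 granulocyte markers summed to 19.4 CPM in co-culture replicate 2, the library with most Zbp1, and to 0.261 and 0.908 CPM in replicates 1 and 3 and 0.235 and 0.272 CPM in monoculture, with Ly6g and Mpo at 0 in all 5. Their part was not tested. Zbp1 was no longer called without monoculture replicate 1 (1.92, adjusted p = 0.426), monoculture replicate 2 (2.56, adjusted p = 0.221), co-culture replicate 1 (2.26, adjusted p = 0.056) or co-culture replicate 2 (1.74, adjusted p = 0.109). Dhx58 was higher by 0.9 (SE 0.25, adjusted p = 0.117), Ddx58 by 0.56 (SE 0.22, adjusted p = 0.295) and Ifih1 by 0.56 (SE 0.18, adjusted p = 0.189), each with no overlap between groups, and none was called by edgeR. DESeq2 called Dhx58 (0.89, adjusted p = 0.0161) beside Zbp1.

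In hypoxic BMDM no member was called for co-culture, beside 7.11% of all genes. Zbp1 was at 5.74 and 5.8 CPM alone and 25.3, 10.2 and 13.9 CPM in co-culture (log2 change 1.5, SE 0.49, edgeR adjusted p = 0.0906). Dhx58 was at 44.6 and 44.7 CPM alone and 95.2, 52.5 and 89 CPM in co-culture (0.82, SE 0.25, adjusted p = 0.0751). Neither gene's groups overlapped. With Ddx58 and Mavs, 4 members had an unadjusted p under 0.05, and DESeq2 called 2, Dhx58 (0.84, adjusted p = 0.0154) and Zbp1 (1.53, adjusted p = 0.00723). Without co-culture replicate 2, edgeR called Dhx58 (1.04, adjusted p = 0.019). Without co-culture replicate 1, it called Mavs (-0.69, adjusted p = 0.015).

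In GL261, co-culture with BV2 gave no call in normoxia (beside 0.514% of all 15189 genes) or in hypoxia (beside 1.39%). Zbp1 was at 6.69 and 3.36 CPM alone and 17.1 and 12.1 CPM in co-culture in normoxia, a 2.9-fold difference (log2 change 1.54, SE 0.41, edgeR adjusted p = 0.191). In hypoxia it was at 7.97 and 4.71 CPM against 18.4 and 8.55 CPM (1.07, SE 0.4, adjusted p = 0.234). Ifih1 was at 14.3 and 14.8 CPM against 26.7 and 22.3 CPM in normoxia (0.76, SE 0.32, adjusted p = 0.55) and 22.6 and 11.1 CPM against 42.5 and 23.4 CPM in hypoxia (0.95, SE 0.31, adjusted p = 0.184). The co-cultured libraries lay above the monocultures for both genes at both oxygen levels. BV2 RNA could account for at most 0.00923% of the Zbp1 and 0.0812% of the Ifih1 measured. Unadjusted, 4 members in normoxia and 3 in hypoxia had a p under 0.05. DESeq2 called 1 member in each, Zbp1 in normoxia (1.55, adjusted p = 0.00919) and Ifih1 in hypoxia (0.97, adjusted p = 0.0426). Without monoculture replicate 1, Ifih1 was called in hypoxia by edgeR (1.56, adjusted p = 0.0265).

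In BV2, co-culture moved no member in normoxia (0 of 8 by edgeR, 0 at an unadjusted p under 0.05 and 0 by DESeq2, beside 14.9% of all genes) and 4 of 8 in hypoxia (1 higher, 3 lower), beside 15.7% (8.13% and 7.57%). Tmem173 fell from 68 and 71 CPM to 47.9 and 49.6 CPM (log2 change -0.51, SE 0.11, edgeR adjusted p = 0.00494), a call that held without any 1 library. Mb21d1 fell from 21.8 and 19.9 to 16.7 and 8.51 CPM (-0.72, SE 0.21, adjusted p = 0.0264), and Aim2 from 140 and 176 to 110 and 125 CPM (-0.42, SE 0.12, adjusted p = 0.0299). Mb21d1 rested on the low replicate 2 of the co-culture. Without it the change was -0.37 (adjusted p = 0.135), without co-culture replicate 1 it was -1.36 (adjusted p = 4.47e-05), and without monoculture replicate 1 it was -0.72 (adjusted p = 0.0694). The Aim2 call was lost without monoculture replicate 2 (-0.31, adjusted p = 0.166) or co-culture replicate 1 (-0.4, adjusted p = 0.0801), and without monoculture replicate 1 the value was -0.65 (adjusted p = 0.00476). Ddx58 was called higher (0.66, SE 0.16, adjusted p = 0.0102). It has the glioma share described above, and the call was lost without monoculture replicate 2 (0.49, adjusted p = 0.129) or co-culture replicate 1 (0.52, adjusted p = 0.08).

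An interaction term asked in each cell type if hypoxia acted differently in co-culture, and edgeR called no member in BV2, GL261 or BMDM. The share of all genes called was 2.19% in BV2 and 0% in the other 2. DESeq2 called 0 members in each. Mb21d1 in BV2 (log2 difference of effects -0.7, SE 0.28, adjusted p = 0.167) and Mavs in BMDM (-0.56, SE 0.25, adjusted p = 1) had an unadjusted p under 0.05, and none did in GL261. Without co-culture hypoxic replicate 1, edgeR called Mb21d1 in BV2 (-1.38, adjusted p = 0.0023).

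**Figure D4:**
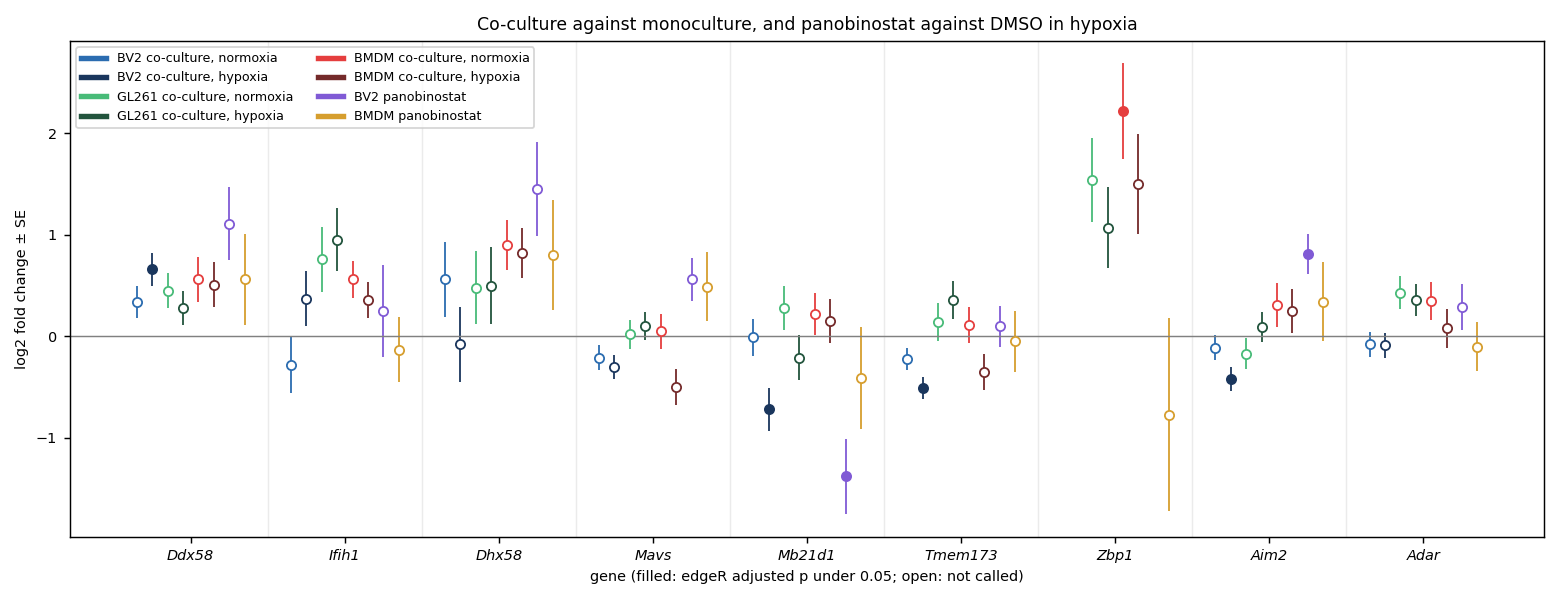
Log2 change of each sensor gene (x axis) with co-culture against monoculture at both oxygen levels and with panobinostat against DMSO in hypoxia (colours), with bars of 1 SE; filled points have an edgeR adjusted p under 0.05. Zbp1 stands highest, at 2.22 in normoxic BMDM co-culture, and Mb21d1 lowest, at -1.38 with panobinostat in BV2.

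Panobinostat in hypoxic BV2 lowered Mb21d1 and raised Aim2. Mb21d1 went from 5.81 and 13 CPM with DMSO to 3.62 and 3.6 CPM (log2 change -1.38, SE 0.37, edgeR adjusted p = 0.0349), and Aim2 from 80 and 63.6 CPM to 126 CPM in both libraries (0.81, SE 0.2, adjusted p = 0.0271). The groups did not overlap for either gene. These were 2 of 8 members called, beside 14.6% of all 13294 genes (7.21% higher, 7.39% lower). Both calls were lost when 1 library was left out. For Mb21d1 the value was -0.69 without DMSO replicate 2 (adjusted p = 0.219), -1.39 without panobinostat replicate 1 (adjusted p = 0.15) and -1.38 without panobinostat replicate 2 (adjusted p = 0.131). For Aim2 it was 0.65 (adjusted p = 0.166), 0.81 (adjusted p = 0.184) and 0.81 (adjusted p = 0.146) in the same order. These comparisons share their DMSO hypoxia libraries with the hypoxia comparison above.

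Ddx58 was at 9.03 and 10.2 CPM with DMSO and 21.6 and 20 CPM with panobinostat in BV2 (log2 change 1.11, SE 0.36, edgeR adjusted p = 0.0677). Dhx58 was at 4.48 and 8.14 CPM against 15.4 and 19.1 CPM (1.45, SE 0.46, adjusted p = 0.0612). Mavs was at 35.4 and 46.1 CPM against 60.6 and 59.2 CPM (0.56, SE 0.21, adjusted p = 0.102). The drug-treated libraries were the higher ones for all 3 genes with no overlap, and none was called by edgeR, while DESeq2 called Ddx58 (1.1, adjusted p = 0.0327) and Dhx58 (1.45, adjusted p = 0.0149). Without DMSO replicate 2, edgeR called Dhx58 (1.94, adjusted p = 0.0293). Tmem173 overlapped, at 47.5 and 51.1 CPM against 55.5 and 49.9 CPM.

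In BMDM panobinostat gave 0 calls among 9 members and 0% among all genes by edgeR, with 0 members at an unadjusted p under 0.05 and 0 by DESeq2. Of all 14914 genes, 3868 had an unadjusted p under 0.05 in this comparison and DESeq2 called 2023. Dhx58 was at 9.2 and 14.5 CPM with DMSO and 15.9 and 25.4 CPM with the drug (log2 change 0.8, SE 0.54, edgeR adjusted p = 0.392), and the other 8 members overlapped. The difference of the panobinostat effect between BV2 and BMDM was not called for any member, beside 0.0251% of all genes. No member had an unadjusted p under 0.05 in that test, and DESeq2 called 0. Between these 2 BMDM groups the myeloid marker sum ran from 2950 to 4750 CPM with DMSO and from 800 to 2190 CPM with panobinostat, and its part was not tested.

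The partners of the RNA helicases did not follow 1 direction in hypoxia. Of 20 listed partners and regulators, 5 rose and 4 fell among 18 tested in BV2 monocultures, where 61.9% of all genes were called and the median was -0.08 over the list and 0 over all genes. Traf6, a ubiquitin ligase downstream of MAVS, rose in BV2 (1.06 alone, 1.5 in co-culture, 1.31 with DMSO), in GL261 (1.07 and 1.53) and in BMDM co-cultures (0.84). Traf3, another signalling ligase at MAVS, fell in BV2 monocultures from 90 ± 11.2 to 34.1 ± 2.45 CPM (-1.4, SE 0.15, edgeR adjusted p = 6.21e-07, n = 2) and rose in GL261 monocultures from 49 ± 0.656 to 110 ± 37.2 CPM (1.16, SE 0.22, adjusted p = 0.00141). The difference of these 2 effects was -2.46 (SE 0.29, adjusted p = 3.68e-06). Eif2ak2, the kinase PKR that binds double-stranded RNA, fell in BMDM alone (-0.94, adjusted p = 0.0255) and in co-culture (-1.05, adjusted p = 0.00346). The list gave 5 higher and 8 lower of 18 in BV2 co-cultures, beside 67.3% of all genes called in either direction. It gave 3 and 2 of 19 in GL261 alone (beside 44.6%), 5 and 3 of 19 in GL261 co-cultures (52.4%), 3 and 2 of 19 in BMDM alone (23.9%) and 3 and 6 of 19 in BMDM co-cultures (34.8%). The shares of the list lay below those of all genes in GL261. With only the groups compared in the fit, 14 were called in BMDM alone and 4 in co-culture.

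Among genes around cGAS and STING, more were called lower than higher in hypoxia. Of the 19 listed, 1 rose and 10 fell among 17 tested in BV2 monocultures (list median -0.86), where 31% of all genes were called lower. In BV2 co-cultures 3 rose and 11 fell (-0.8), beside 32.1% lower. In GL261 3 rose and 8 fell of 17 at each setting (-0.31 and -0.34), beside 21.4% lower alone and 25.6% in co-culture. In BMDM 0 rose and 9 of 19 fell alone (-0.71), beside 10.6% lower, and 0 rose and 12 fell in co-culture (-0.66), beside 17.3%, with a median of all genes of 0.03 in both. Xrcc6, the Ku70 subunit that binds DNA ends, fell in BV2 monocultures from 110 ± 3.79 to 41.6 ± 3.75 CPM (-1.41, SE 0.12, edgeR adjusted p = 3.3e-08, n = 2). Banf1, which coats DNA and competes with cGAS, fell there by 1.32 on the log2 scale (adjusted p = 1.53e-06), and by 1.86 in co-culture (adjusted p = 3.59e-08). Rnaseh2b, a subunit of the RNase H2 enzyme that clears RNA from DNA, fell in BV2 (-1.51), GL261 (-1.62) and BMDM (-1.44) co-cultures. Ifi204, an interferon-inducible DNA sensor, went the other way in BV2, from 8.88 ± 0.596 to 67.6 ± 3.85 CPM alone (2.93, SE 0.15, adjusted p = 2.66e-10, n = 2), by 2.38 in co-culture and by 1.84 with DMSO.

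Of 12 genes of the AIM2 inflammasome and of necroptosis, 2 rose and 4 fell among 10 tested in BV2 monocultures and 1 rose and 7 fell in BV2 co-cultures, with list medians of 0.04 and -0.35, beside 61.9% and 67.3% of all genes called. In BV2 with DMSO 2 rose and 0 fell of 10 (list median -0.19), beside 37.5% of all genes called. Casp1, the inflammasome protease, fell in BV2 co-cultures from 95 ± 4.99 to 38.2 ± 0.72 CPM (log2 change -1.31, SE 0.11, edgeR adjusted p = 3.28e-08, n = 2), and its hypoxia effect was lower there than in monoculture (-0.71, SE 0.15, adjusted p = 0.0286). In BMDM monocultures 1 rose and 3 fell of 12, beside 23.9% of all genes. In BMDM co-cultures 1 rose and 6 fell of 12, beside 34.8% of all genes. Pycard, the adaptor that links AIM2 to caspase-1, fell by 1.55 (SE 0.16, adjusted p = 6.63e-05), and Ripk3, the necroptosis kinase that ZBP1 engages, fell by 1.08 (SE 0.15, adjusted p = 0.000413). Nlrp3, another inflammasome sensor, rose by 1.06 (SE 0.21, adjusted p = 0.00276). In GL261 1 rose and 3 fell of 8 tested alone (beside 44.6%), and 1 rose and 2 fell in co-culture (beside 52.4%). Gsdmd, the pore-forming protein of pyroptosis, fell in GL261 (-1.3 alone and -1.29 in co-culture). Not every gene of the list was expressed in each cell type. Pycard was at 0 CPM in normoxic BV2 with DMSO, against 51.8 ± 12.9 CPM in BMDM. Ripk3 was at 0 CPM in normoxic BV2 monocultures, against 23.8 ± 1.21 CPM in GL261. In normoxic GL261 monocultures Casp1 was at 0.155 ± 0.0691 CPM and Nlrp3 at 0.233 ± 0.104 CPM.

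Of the transcripts that sensor signalling is known to induce, those called for co-culture were higher. Of 12 listed, 5 of 10 tested rose in normoxic and 7 of 10 in hypoxic BV2 co-cultures, 2 and 3 of 8 in GL261, and 4 and 6 of 11 in BMDM, with 0 lower in all 6 comparisons. Of all genes, 14.9% and 15.7% were called in either direction in BV2, 0.514% and 1.39% in GL261, and 1.64% and 7.11% in BMDM. When genes high in the partner cell were left out before p-values were adjusted, the counts were 2 and 2 in BV2, 1 and 3 in GL261, and 1 and 3 in BMDM. Any listed gene itself high in the partner dropped out of these counts, and the part of partner RNA in the rest was not tested. Isg15, a ubiquitin-like interferon product, rose in normoxic BMDM co-cultures from 24.1 ± 5.86 (n = 2) to 96.4 ± 13.2 CPM (n = 3; log2 change 2.01, SE 0.2, edgeR adjusted p = 0.00234). Ifit3, an RNA-binding antiviral protein, rose in GL261 co-cultures from 12.1 ± 0.521 to 33.3 ± 0.408 CPM (1.45, SE 0.17, adjusted p = 0.00704, n = 2). In hypoxic GL261 the list gave 1 higher and 1 lower of 8 alone (beside 44.6% of all genes). It gave 1 higher and 4 lower in co-culture (beside 52.4%), and the list medians were -0.39 and -0.52. In monocultures Cxcl10, a chemokine, rose from 15.6 ± 8.54 to 335 ± 128 CPM (4.43, SE 0.49, edgeR adjusted p = 5.11e-05), while Ifit3 fell (-0.81, SE 0.18, adjusted p = 0.00388). In co-cultures Cxcl10 rose by 3.8, while Ifit1 (-1.1) and Isg15 (-0.97) were among those that fell. In hypoxic BMDM the list gave 1 higher and 5 lower of 11 alone (beside 23.9% of all genes) and 2 higher and 6 lower in co-culture (beside 34.8%). Mx1, an antiviral GTPase, fell in both (-2.48, adjusted p = 0.0206, and -2.04, adjusted p = 0.00608). With DMSO in BV2 6 of 10 fell and 0 rose (3 called where a mean of 5 CPM was required), beside 20.2% of all genes called lower, and Ifit2 fell by 2.09 (SE 0.33, adjusted p = 0.00138). Panobinostat raised 1 of 10 in BV2, beside 7.21% of all genes, again Ifit2 (1.8, SE 0.33, adjusted p = 0.00961).

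For panobinostat in BV2, where 14.6% of all genes were called, 2 of 18 genes of the RNA sensing list fell, among them Trim65, a ubiquitin ligase acting on MDA5 (log2 change -2.37, SE 0.31, edgeR adjusted p = 0.00279). Among 17 tested genes of the DNA list, Xrcc5 rose (0.69, adjusted p = 0.0402) and Rnaseh2b fell (-1.2, adjusted p = 0.0357). Fadd (-1.06, adjusted p = 0.0359) and Nlrp3 (-0.88, adjusted p = 0.045) were the 2 of 10 cell death genes that fell. Blocking on the replicate number, 5 genes of the RNA list, 4 of the DNA list and 6 of the cell death list were called for panobinostat in BV2. That block also raised the calls over all 13294 genes from 1941 to 4025. In BMDM edgeR called 0 genes of the 4 lists for hypoxia with DMSO, where 8, 6, 6 and 5 genes (in the order RNA, DNA, cell death, induced transcripts) had an unadjusted p under 0.05 and DESeq2 called 7, 4, 3 and 4. For panobinostat in BMDM edgeR called 0 too, with 9, 4, 6 and 1 at an unadjusted p under 0.05 and 5, 4, 4 and 1 by DESeq2. Of all 14914 genes, 3786 had an unadjusted p under 0.05 for hypoxia with DMSO and DESeq2 called 2078. For panobinostat these counts were 3868 and 2023.

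Across the 18 group means, which mix 3 cell types and 3 count tables, the levels of Ifih1 and Zbp1 ran together (Pearson r = 0.95), as did Ddx58 and Ifih1 (0.832), Ddx58 and Zbp1 (0.801), and Mavs and Tmem173 (0.785). Aim2 ran against Ifih1 (-0.757). Among 11174 genes the pattern most like Ifih1 was that of Trim30a (0.988), followed by Trim30d (0.98). For Zbp1 these were Stat2 (0.97) and Oasl2 (0.962), for Adar Rnf213 (0.894) and Usp18 (0.888), and for Mb21d1 Shcbp1 (0.942) and Hmgn2 (0.934). Ddx58 was nearest to Notch1 (0.963) and Pdgfa (0.952), Dhx58 to Dcxr (0.951), Tmem173 to Frrs1 (0.962), Mavs to Pygb (0.917) and Aim2 to Frg1 (0.923). Groups of 1 cell type share that cell type and, within an experiment, the count table.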

How the data were processed

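Raw gene counts from poly(A) RNA libraries (stranded kit, 2 replicates per group, 3 in BMDM co-culture) were used as the authors deposited them, in 3 tables with whole-number counts per gene. Per the submitters' processing notes, Trimmomatic 0.36, STAR 2.6, SAMtools, HTSeq 0.9.1 and the build mm10 were used, with Picard 2.17.1 and deepTools named for some libraries. Counting mode, strand setting and annotation release are not given in the sources used here. The 10 members and all gene lists were chosen with earlier results of these data known. The lists name at most the 2 largest rises and 2 largest falls past the threshold at a mean of 5 CPM or more. Values of 1 listed gene are not reported here.

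Each cell type and experiment was fitted with edgeR 4.0.16 (quasi-likelihood F test, TMM scaling, filterByExpr at its defaults, a mean per group) in R 4.3.3, with p-values adjusted by Benjamini-Hochberg over all genes tested and called under 0.05. BV2 with GL261, and BV2 with BMDM of the second experiment, were also fitted together for interactions. CPM values are TMM-scaled unless called plain. SE is the log2 change divided by the square root of F. List values are mean ± SD over libraries. Partner RNA was estimated from genes reaching 20 CPM in the partner's monoculture and at least 100-fold lower in the cell's own, as the median ratio to the partner's level. Replicates differed beyond counting noise in all 22 pairs within groups (chi-square per degree of freedom 6.7 to 156). Same-numbered BMDM co-culture libraries deviated together (r = 0.6, 0.31 and 0.41 for 3 pairs), so the replicate number was also fitted as a block there; the labels state no pairing. Coordinates and overlaps come from GENCODE M21 (GRCm38), promoters from RefSeq. The test was also run on simulated counts with a fixed spread and few changed genes. That run did not check the larger spread or the larger share of changed genes seen in some comparisons here. Alternatives were DESeq2 1.42.0, its size factors in edgeR, other filters, a replicate block, only the groups compared, leaving out genes high in the partner, and leaving out each library.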

Additional observations from a re-analysis of the deposited data

Results flagged for a closer look

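The response to hypoxia differed between BV2 and GL261 monocultures for 4 of 9 tested sensor genes. The difference itself was tested (edgeR interaction, 2 libraries per group), and 37.4% of all genes were called there (18.7% each way). For Mb21d1 the difference, BV2 minus GL261, was -1.58 on the log2 scale (adjusted p = 0.000581), and both BV2 hypoxic libraries were lower than the normoxic ones while those of GL261 overlapped. The difference for Ddx58 was -0.83 (adjusted p = 0.00908), with a rise in GL261. For Mavs it was 0.73 (adjusted p = 0.00245), with a fall in both cell types that was larger in GL261. For Aim2 it was 0.8 (adjusted p = 0.00465), with a rise in BV2. The Ddx58 and Aim2 calls were lost in some runs that left out 1 library, as given above.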

How the results depend on the processing

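No member's called change reversed its sign in the alternative fits. Taking away the estimated partner RNA, outside any fit, left no Ddx58 rise in hypoxic BV2 co-cultures. What remained was 10.4 and 7.92 plain CPM in hypoxia and 12.7 and 10.3 plain CPM in normoxia, which overlapped. The count of members called moved by over 1.5 times as follows. With DESeq2 it was 5 in place of 3 for hypoxia in BMDM monoculture, 7 in place of 0 for hypoxia in BMDM with DMSO, 1 in place of 0 for GL261 co-culture in normoxia and in hypoxia, 2 in place of 1 and 2 in place of 0 for BMDM co-culture in normoxia and hypoxia, and 4 in place of 2 for panobinostat in BV2. With no filter on low counts it was 4 in place of 2 for hypoxia in GL261 co-culture, 5 for BMDM monoculture, 7 for BMDM with DMSO, 2 for GL261 co-culture in normoxia and in hypoxia, 2 for BMDM co-culture in normoxia and in hypoxia, 4 for panobinostat in BV2, 1 in place of 0 for the BV2 interaction of co-culture and hypoxia (Mb21d1), and 2 in place of 0 for the BV2 and BMDM hypoxia difference. With a mean of at least 5 CPM, or without genes high in the partner, it was 0 in place of 1 for BMDM co-culture in normoxia. With only the groups compared in the fit it was 4 for hypoxia in GL261 co-culture and 6 for BMDM monoculture. Over all genes, DESeq2 called 3945 in place of 3542 for hypoxia in BMDM monoculture and 2078 in place of 72 in BMDM with DMSO. For GL261 co-culture it called 155 in place of 78 in normoxia and 449 in place of 211 in hypoxia. For BMDM co-culture it called 600 in place of 243 in normoxia and 1645 in place of 1053 in hypoxia. For panobinostat in BV2 it called 2101 in place of 1941. The cause of these moves was not tested.

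With the replicate number as a block, the count was 5 in place of 3 for hypoxia in GL261 monoculture, 4 in place of 2 in GL261 co-culture, 7 in place of 0 in BMDM with DMSO, 1 in place of 0 and 2 in place of 0 for GL261 co-culture in normoxia and hypoxia, 1 in place of 0 for BMDM co-culture in hypoxia, and 5 in place of 2 for panobinostat in BV2. Over all genes the block gave 7625 in place of 6777 for hypoxia in GL261 monoculture, 8661 in place of 7965 in GL261 co-culture and 2127 in place of 72 in BMDM with DMSO. It gave 226 in place of 78 and 654 in place of 211 for GL261 co-culture in normoxia and hypoxia. For BMDM co-culture in hypoxia it gave 1058 in place of 1053, and for panobinostat in BV2 4025 in place of 1941. The labels give only a number for all groups. Outside BMDM co-culture, same-numbered libraries correlated by 0.067 on average in BV2 (-0.2 to 0.48), 0.32 in GL261 (0.04 to 0.64), 0.42 in BV2 (0.24 to 0.52) and 0.48 in BMDM (0.34 to 0.68) of the second experiment.

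Leaving out 1 library at a time gave 2 to 5 calls for hypoxia in BV2 monoculture, 2 to 4 in GL261 co-culture, 1 to 2 in BMDM monoculture, 2 to 5 in BV2 with DMSO and 0 to 1 in BMDM with DMSO. It gave 2 to 4 for BV2 co-culture in hypoxia, 0 to 1 for GL261 co-culture in hypoxia, 0 to 1 for BMDM co-culture in normoxia and 0 to 1 in hypoxia, 0 to 2 for panobinostat in BV2 and 0 to 1 for the BV2 interaction of co-culture and hypoxia. Where a group kept 1 library, that library was taken to vary like the others. Of 600 counts of listed genes under other settings, 132 moved by over 1.5 times. Depth limits Zbp1 in BV2, which lay at a few counts.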
